A study of Mus musculus with 30 samples.

Results

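The 8 microRNA genes described here encode miR-9 (Mir9-1, Mir9-2 and Mir9-3), miR-128 (Mir128-1 and Mir128-2) and miR-124 (Mir124a-1, Mir124a-2 and Mir124a-3), and they were chosen by symbol from the 2194 named rows of 5 organ tables. Small RNA libraries were made from the brain, spleen, heart, kidney and liver of 3 mice labelled Ftsj1_DF, which the series describes as Ftsj1-deficient, and 3 wild-type mice (WT), all male and 4 months old. Ftsj1 encodes a methyltransferase that modifies the ribose of tRNA. The libraries number 30, with 1 per organ and mouse, and each was made from a whole organ, so fewer cells of a type and less RNA per cell cannot be told apart. The Ftsj1_DF mice are 1647, 1654 and 1656 and the WT mice 1646, 1653 and 1655, of which 1646 and 1647 are brothers and the other 4 are brothers of one another. The authors deposited, for every organ, the mean of normalized counts over the 6 libraries and a contrast of the genotypes, with no value per library. The sources used here do not give the strain or the allele behind the label DF, and Ftsj1 itself was not analysed here.

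A microRNA gene is transcribed as a longer RNA that is trimmed to a hairpin, from which a short mature strand is loaded into an Argonaute protein. The mature strand pairs with messenger RNAs mainly through its seed, bases 2 to 8, and represses them. All 3 families are known as microRNAs of the nervous system. miR-9 acts in neural progenitors and in their differentiation, miR-124 is abundant in differentiated neurons and represses many transcripts of other cell types, and miR-128 acts in postmitotic neurons and restrains neuronal excitability.

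RefSeq sequences (GRCm38.p6) were found for 5 of the 8 genes, all of Mir9 and Mir128. They are shown because they decide which reads can be told apart by copy. Each hairpin stands in lower case with its mature arms in capitals.
Mir9-1, chromosome 3, plus strand: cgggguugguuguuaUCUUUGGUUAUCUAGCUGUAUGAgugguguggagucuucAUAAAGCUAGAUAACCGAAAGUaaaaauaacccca
Mir9-2, chromosome 13, plus strand: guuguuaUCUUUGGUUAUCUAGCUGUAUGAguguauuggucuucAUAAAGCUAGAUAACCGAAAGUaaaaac
Mir9-3, chromosome 7, plus strand: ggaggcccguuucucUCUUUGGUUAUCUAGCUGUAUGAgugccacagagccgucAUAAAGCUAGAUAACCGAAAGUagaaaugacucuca
Mir128-1, chromosome 1, plus strand: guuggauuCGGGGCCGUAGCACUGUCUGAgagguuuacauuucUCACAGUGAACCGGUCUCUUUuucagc
Mir128-2, chromosome 9, minus strand: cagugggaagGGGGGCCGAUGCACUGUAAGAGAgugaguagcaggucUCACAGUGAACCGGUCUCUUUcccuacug

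The mature strands follow with the seed in capitals.
miR-9-5p: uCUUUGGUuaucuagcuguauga
miR-9-3p: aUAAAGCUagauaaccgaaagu
miR-128-3p: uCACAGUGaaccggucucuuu
miR-128-1-5p: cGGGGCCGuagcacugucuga
miR-128-2-5p: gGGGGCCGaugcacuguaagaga
Both arms of miR-9 were identical in all 3 hairpins, while the hairpins themselves were 71.1% to 78.9% identical over the longer of each pair. The Mir128 hairpins, of 70 and 76 bases, had 55 identical bases and shared the 3p arm. Their 5p arms differed outside a common seed. No other precursor in the RefSeq table carried any of these seeds. A read of a shared arm fits each copy equally well, and how the authors counted such reads is not given in the sources used here, so values for single copies are uncertain. A read counted for more than 1 copy would also enter a family sum more than once, so the sums and shares below hold for the counts as deposited.

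By position in the GENCODE M21 annotation of GRCm38, a build older than the GRCm39 of the deposited tables, the members sat in different transcripts. Mir128-1 lay in an intron of R3hdm1 and Mir128-2 in an intron of Arpp21, both protein-coding genes on the same strand. Mir9-1 lay in an intron of the long noncoding RNA Gm3764, Mir9-3 in an intron of Mir9-3hg, and Mir9-2 in an exon of C130071C03Rik. Mir124a-1, on chromosome 14, lay in an exon of Mir124a-1hg. Mir124a-2, on chromosome 3, lay in an exon of Mir124-2hg. Mir124a-3, on chromosome 2, overlapped the long noncoding RNA Gm27032 by 3 bases.

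The members' shares were far higher in brain than in the other organs. The 8 members together held 21.0% of the summed normalized counts of brain, against at most 0.213% in any other organ, which was heart. miR-9 made up 11.9% of the brain sum, miR-128 8.19% and miR-124 0.948%. Mir9-2 ranked 2 among all brain rows, Mir128-1 ranked 3 and Mir9-3 ranked 5. Mir128-2 ranked 15, and the miR-124 rows ranked 37 (Mir124a-3), 63 (Mir124a-2) and 110 (Mir124a-1). These are shares of an organ's own sum, so they do not measure amount per cell or per organ, and the organ tables were normalized separately, so levels were compared between organs without a test.

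**Figure D1:**
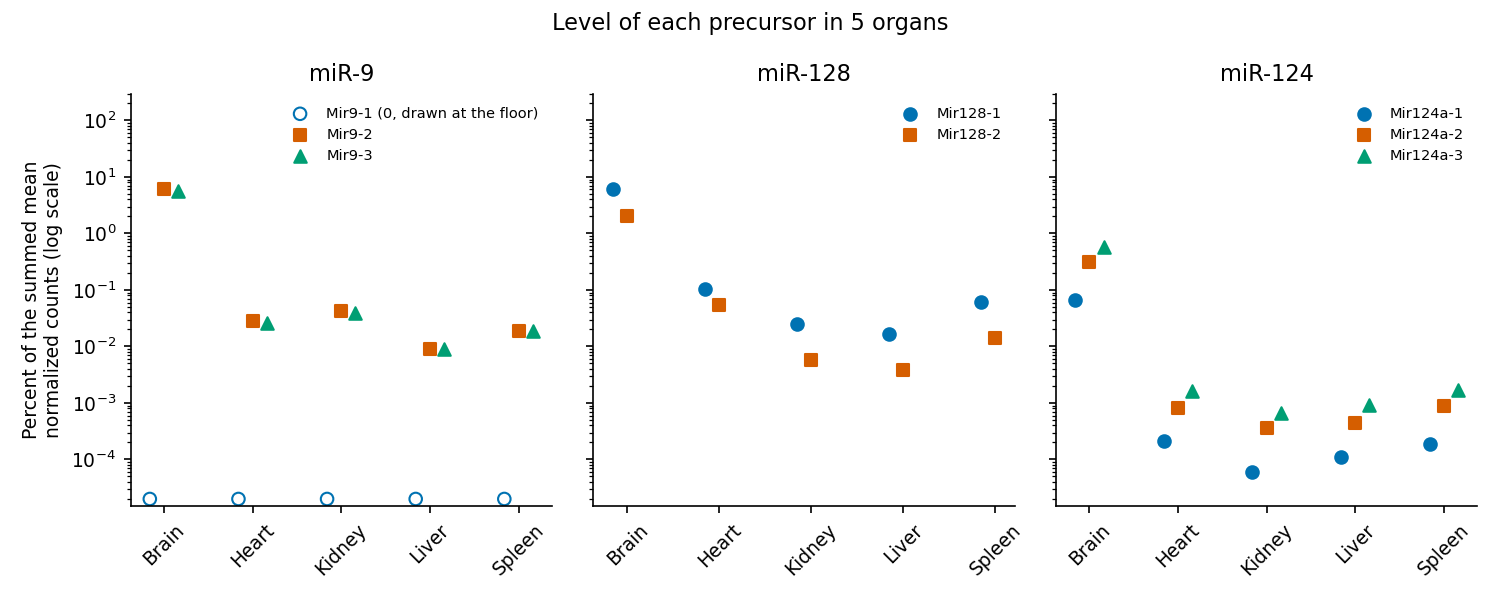
Percent of each organ's summed mean normalized counts (log axis) for the members in 5 organs, with 1 point for each precursor and organ, averaged over 6 libraries of both genotypes. Brain is highest for the 7 members above 0, and Mir9-1, at 0 in all 5 organs, is drawn as open circles at the floor of the axis.

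The organs other than brain differed in which family led. miR-9 was at 0.0802% of the sum in kidney, 0.0541% in heart, 0.0378% in spleen and 0.0180% in liver. miR-128 was at 0.156% in heart, 0.0752% in spleen, 0.0308% in kidney and 0.0207% in liver. Heart thus had the most miR-128 outside brain, and kidney the most miR-9. The ratio of miR-9 to miR-128 was 2.61 in kidney, 1.45 in brain, 0.872 in liver, 0.502 in spleen and 0.346 in heart. miR-124 was far lower, at 0.00276% in spleen, 0.00266% in heart, 0.00149% in liver and 0.00110% in kidney.

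Brain exceeded the next organ by 148-fold for miR-9 (kidney), by 52.4-fold for miR-128 (heart) and by 343-fold for miR-124 (spleen). With organs scaled by the median of ratios over rows with a mean of at least 10 in every organ, these values were 81.5-fold, 34.7-fold and 212-fold, and liver took the place of spleen for miR-124. Per precursor, Mir124a-2 had the highest ratio at 363-fold and Mir128-2 the lowest at 38.3-fold. The order of the other organs was less certain. The spread between libraries was taken from each deposited standard error as a coefficient of variation that leaves out counting error. Of 28 neighbouring pairs of organs in the members' level orders, 11 were apart by more than 1 SD on each side and 17 overlapped. Those apart were the 7 steps from brain to the next organ and, for both Mir128 rows, heart over spleen and spleen over kidney. All steps outside brain overlapped for miR-9 and miR-124.

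Other microRNAs known from neurons gave the setting for these ratios. The list of 14 further precursors (Mir137, Mir153, Mir138-1, Mir138-2, Mir218-1, Mir218-2, Mir129-1, Mir129-2, Mir132, Mir212, Mir134, Mir382, Mir383 and Mir488) was highest in brain for 14 of 14. The members made up 21.0% of the brain sum, against 2.41% for the list as a whole. The brain share of the 14 listed precursors exceeded the next organ by 3.98-fold (Mir218-2) to 241-fold (Mir129-2), with a median of 33.5-fold. The 3 highest in brain were Mir132 at 0.658%, Mir218-2 at 0.516% and Mir218-1 at 0.459%. The 3 miR-124 rows lay above all of the list, as the plot of ratios against the next organ shows. Both miR-128 rows lay within it, as did Mir9-2 and Mir9-3 at 148-fold each. The list does not hold every row with a high ratio. Outside it, Mir219a-2 was at 309-fold, and Mir1298 was at 0.0620% of the brain sum against 0.000187% in spleen, its next organ.

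**Figure D2:**
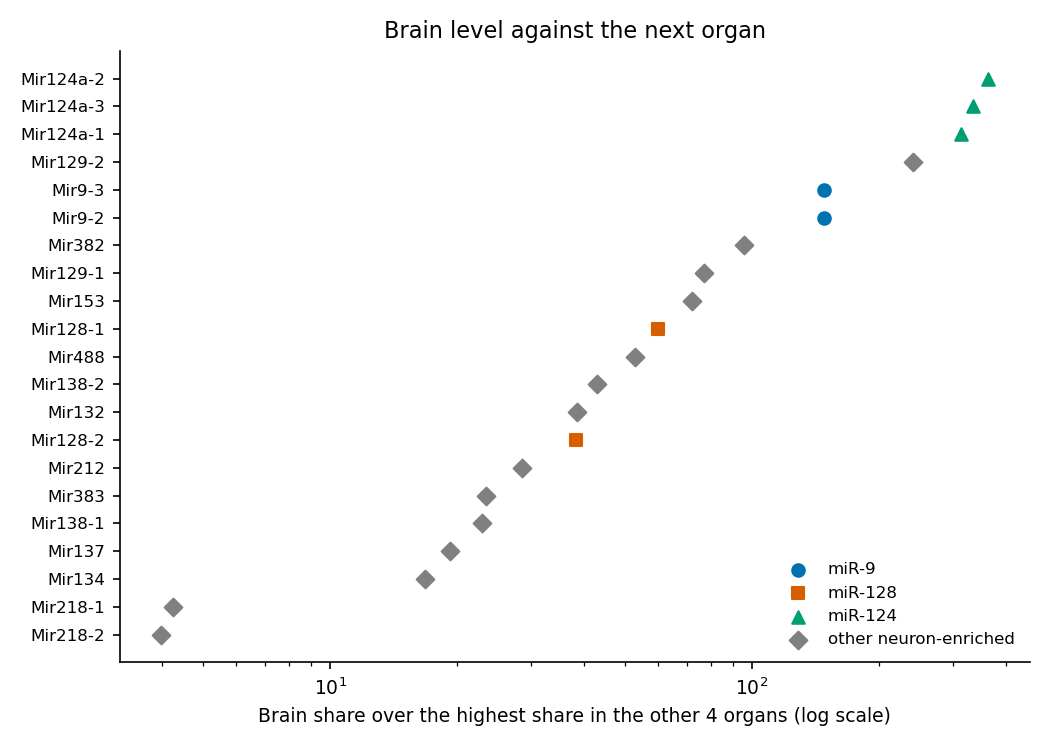
Share of the brain sum divided by the highest share among the other 4 organs (log axis), for the 7 members above 0 and the 14 other neuron-enriched precursors, from means over 6 libraries. The miR-124 points lie at the high end, at 312-fold to 363-fold, and both Mir218 rows at the low end, at 3.98-fold and 4.24-fold.

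Markers of liver and heart stood where the labels put them. Mir122, the main microRNA of hepatocytes, made up 26.2% of the liver sum, and Mir1a-1, a microRNA of striated muscle, made up 7.45% of the heart sum. In brain, Mir122 was at 0.0927% of its liver share and Mir1a-1 at 0.345% of its heart share. Other listed markers of heart muscle, kidney and leukocytes were in brain at 0.0743% (Mir208b) to 5.10% (Mir150) of their highest share. The miR-124 sum in the organs other than brain was at 0.116% to 0.291% of its brain share, between the values of Mir122 and Mir1a-1. For miR-9 that range was 0.152% to 0.676%, and for miR-128 it was 0.252% to 1.91%, the highest being heart. The part of RNA from other libraries in these low levels was not tested.

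Single copies held steady parts of their family. Mir9-2 made up 50.2% to 52.8% of the miR-9 sum over the 5 organs, and Mir9-3 the rest. Mir124a-3 held 59.7% to 62.8% of the miR-124 sum, Mir124a-2 held 29.8% to 33.4% and Mir124a-1 held 5.56% to 7.84%, although the miR-124 sum was 152789 normalized counts in brain, against 227 in heart. Mir128 varied more. Mir128-1 made up 74.8% of the miR-128 sum in brain and 65.5% in heart, against 80.9% to 81.1% in kidney, liver and spleen. In levels, Mir128-1 exceeded Mir128-2 by 2.97-fold in brain, 1.90-fold in heart, 4.29-fold in liver, 4.25-fold in spleen and 4.25-fold in kidney.

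**Figure D3:**
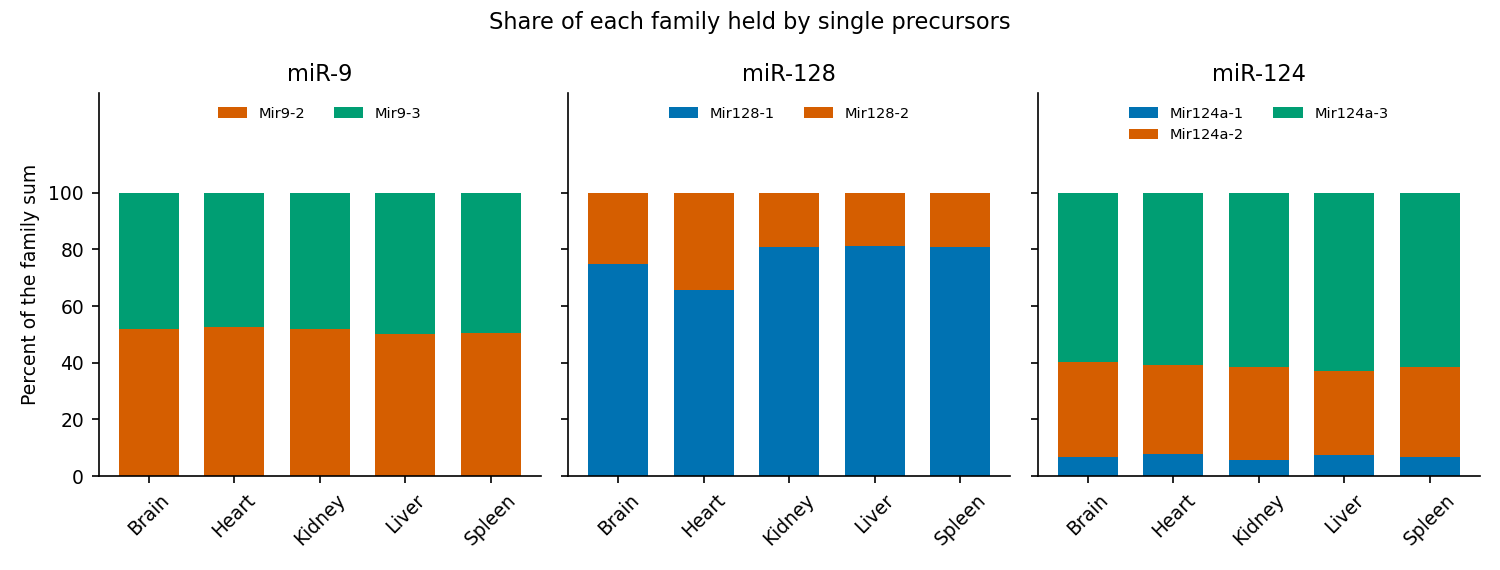
Percent of each family's summed mean normalized counts held by each precursor, in 5 organs. Mir9-2 and Mir9-3 are nearly level, Mir128-1 leads Mir128-2 least in heart, and the order of the 3 Mir124a rows is the same in every organ. Mir9-1, at 0, is not drawn.

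Copies that share arms were compared over all precursors of the RefSeq table whose higher copy had a brain mean of at least 100. Among 6 pairs with both arms the same, 2 had a copy at 0, and both of these were pairs with Mir9-1. The other 4 pairs differed by 1.08-fold to 12.1-fold, with a median of 1.57-fold, and Mir9-2 with Mir9-3 was the closest. Among 23 pairs that share 1 arm, the median difference was 2.04-fold over the 22 with both copies above 0, and 9 of them differed by more than the 2.97-fold of Mir128.

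Mir9-1 stood apart from its copies, with a mean of 0 in all 5 organs although it encodes the same mature strands. In the GENCODE annotation all 89 of its bases lie under Gm25641, a microRNA gene on the opposite strand that RefSeq also names Mir9b-1. No other member is overlapped by a microRNA gene there, but RefSeq lists Gm51268 (Mir9b-2) over Mir9-2, Gm51285 (Mir9b-3) over Mir9-3 and Gm51272 (Mir124b) over Mir124a-2. None of these 4 is among the rows analysed. Of the microRNA rows matched to GENCODE, 34 were wholly overlapped by another microRNA gene, and 34 of these 34 were at 0 in all 5 organs. Of 21 rows overlapped in part, 1 was at 0 throughout, and of 1119 rows without such an overlap, 98 were. The part of the overlap in the 0 of Mir9-1 was not tested, and a 0 here does not show that the gene is silent.

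The genotype contrast asks whether loss of Ftsj1 changes these microRNAs. In none of the organs did a member pass the threshold of 0.05 for the adjusted p that the authors deposited (DESeq2 Wald test). Of 40 pairs of member and organ, 35 have a statistic (Mir9-1 has none). Of these, 1 (Mir124a-1 in heart) has no adjusted p. The count past the adjusted threshold was 0 of 34, and 0 of 35 had an unadjusted p under 0.05. Over the rows with an adjusted p, the shares called were 1.13% in heart (4 of 355) and 0.229% in liver (2 of 872). They were 0% in brain, 0% in spleen and 0% in kidney. Over the rows with an unadjusted p, the shares under 0.05 were 5.33% in heart (59 of 1107), 4.5% in kidney and 3.9% in liver. Spleen had 3.48% and brain 2.23%. Which genotype forms the numerator of the fold change is not stated in the tables, so only its sign is given. That it is the same genotype in every organ is not stated either, and comparisons of signs or fold changes between organs assume it. Each contrast sets 3 libraries of one genotype against 3 of the other, called here the numerator libraries (higher where the fold change is positive) and the denominator libraries. The p-values measure the spread between mice of which some are brothers. In heart, kidney and liver, 1 WT library and no Ftsj1_DF library comes from a second sequencing batch. In these organs batch is thus partly mixed with genotype and with the spread between mice.

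Fitted means given here were worked out from the deposited mean and fold change, on the assumption that both sides average to the deposited mean. In brain, Mir128-2 was farthest from 0, with a fitted mean of 253634 normalized counts in numerator libraries and 411939 in denominator libraries. Its log2 fold change in the authors' deposited table was -0.70 (SE 0.42, 95% interval -1.52 to 0.12, DESeq2 Wald p = 0.0953, adjusted p = 0.989). Mir128-1, which shares the 3p arm, had fitted means of 999288 and 975158 in the numerator and denominator libraries and a log2 fold change of 0.04 (SE 0.25). The difference between the fold changes of these copies was -0.73, and since they come from the same libraries its standard error can lie anywhere between 0.168 and 0.671. At the larger error its 95% interval was -2.05 to 0.58, and the data do not say which error holds.

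The miR-9 rows had like fold changes in brain. Mir9-2 had fitted means of 873801 normalized counts in numerator libraries and 1113070 in denominator libraries, a log2 fold change of -0.35 (SE 0.26, 95% interval -0.85 to 0.15). Mir9-3 was at 827149 in numerator libraries and 1008692 in denominator libraries, with -0.29 (SE 0.24, 95% interval -0.77 to 0.19). Both encode the same mature strands and were measured in the same libraries, so they may not be independent of each other. For miR-124 the signs were mixed, with log2 fold changes of -0.47 for Mir124a-1, 0.22 for Mir124a-2 and -0.09 for Mir124a-3, and standard errors of 0.32, 0.28 and 0.24.

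Outside brain the miR-9 and miR-128 rows had smaller standard errors than the miR-124 rows, except for Mir9-3 in liver, whose error exceeded that of Mir124a-2. The Mir128 rows had log2 fold changes of -0.22 and -0.10 in heart, 0.17 and 0.44 in liver, 0.05 and 0.03 in spleen, and -0.03 and 0.04 in kidney, Mir128-1 first. The Mir9 rows had -0.11 and -0.03 in heart, 0.74 and 0.70 in liver, 0.23 and 0.33 in spleen, and 0.12 and 0.14 in kidney, Mir9-2 first. Liver held the least certain of these, with standard errors of 0.91 for Mir9-2 and 1.31 for Mir9-3, which correspond to a spread between libraries of 77.4% and 111%. The smallest spread was 16.3%, for Mir128-1 in heart.

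Counted by sign, 25 of the 35 fold changes were positive and 10 negative, which assumes the same numerator genotype in every organ. Brain had 2 positive and 5 negative, heart 3 and 4, liver 7 and 0, spleen 7 and 0, and kidney 6 and 1. The 3 positive heart values are those of the Mir124a rows, whose ratios from recovered reads turned negative without 1 library, as did that of Mir124a-2 in liver. In spleen the ratios of Mir124a-1 and Mir124a-3 turned negative without the highest library. The members' median log2 fold change was -0.29 in brain, 0.70 in liver, 0.23 in spleen, 0.14 in kidney and -0.03 in heart. Over all rows with a mean of at least 10, the medians ran from -0.03 (kidney) to 0.01 (liver). All 7 members of an organ come from the same 6 libraries, so these counts are not 35 separate observations.

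Each member's fold change in brain was then set against that in each other organ, on the assumption that the numerator genotype is the same in both. Of 28 differences, 0 passed an adjusted p of 0.05 (Wald test of the difference from the deposited standard errors, Benjamini-Hochberg over all rows tested), and 0 had an unadjusted p under 0.05. The share of all rows under an unadjusted p of 0.05 was 2.27% for heart, 3.26% for kidney, 3% for liver and 2.29% for spleen. The largest difference relative to its standard error was that of Mir128-2 between brain and liver, with a difference of -1.14 (SE 0.61, 95% interval -2.34 to 0.06, adjusted p = 0.999). In 26 of 28 differences the brain value was the lower one. The same share over all rows is not given here. Each member's brain value enters its differences with every other organ, so these are not 28 separate observations. Members of an organ also come from the same libraries. Without a single library, the ratio of Mir124a-2 from recovered reads was -0.30 in heart, -0.23 in liver and 0.0036 in spleen, below its brain value of 0.22. That of Mir124a-3 in heart was -0.54, below -0.09 in brain. The other miR-124 ratios stayed above their brain values. The organs come from the same mice, which the test could not take into account.

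For the low miR-124 rows outside brain, reads per library could be recovered. An organ's deposited means are built from whole reads, each divided by the size factor of its library, and the 6 size factors can be read from means under 1. The split of a mean into reads was kept where exactly 1 solution returned the deposited fold change within 0.0001. It gave the 12 values of the 3 miR-124 rows in the 4 organs other than brain. A library's place in the contrast is known from this, but not its genotype, mouse or batch. The rows in brain and the miR-9 and miR-128 rows were too abundant to split.

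In heart, Mir124a-3 had 92, 141 and 152 reads in numerator libraries and 0, 154 and 128 in denominator libraries. Mir124a-2 had 55, 68 and 102 reads in numerator libraries and 2, 51 and 78 in denominator libraries. Mir124a-1 had 16, 16 and 14 reads in numerator libraries and 0, 17 and 18 in denominator libraries. The libraries are in the same order for all 3 rows, and 1 denominator library was at or near 0 in each while the other 5 were well above it.

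Kidney showed the same shape. Mir124a-3 had 255, 231 and 157 reads in numerator libraries and 190, 0 and 87 in denominator libraries. Mir124a-2 had 151, 108 and 76 reads in numerator libraries and 80, 0 and 72 in denominator libraries. For Mir124a-1 the reads were 24, 24 and 13 in numerator libraries and 14, 0 and 9 in denominator libraries. Again 1 denominator library held no read of any of the 3 copies.

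In liver, Mir124a-3 had 141, 154 and 107 reads in numerator libraries and 176, 0 and 457 in denominator libraries. Mir124a-2 had 69, 67 and 38 reads in numerator libraries and 114, 0 and 243 in denominator libraries. Mir124a-1 had 17, 18 and 14 reads in numerator libraries and 21, 0 and 51 in denominator libraries. The denominator libraries thus held both the lowest and the highest liver library for all 3 rows, and the groups overlapped.

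Spleen had no such library. Mir124a-3 had 223, 127 and 168 reads in numerator libraries and 201, 175 and 166 in denominator libraries. Mir124a-2 had 100, 74 and 81 reads in numerator libraries and 104, 88 and 94 in denominator libraries. Mir124a-1 had 24, 11 and 18 reads in numerator libraries and 19, 17 and 28 in denominator libraries, and the groups overlapped for all 3 rows.

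**Figure D4:**
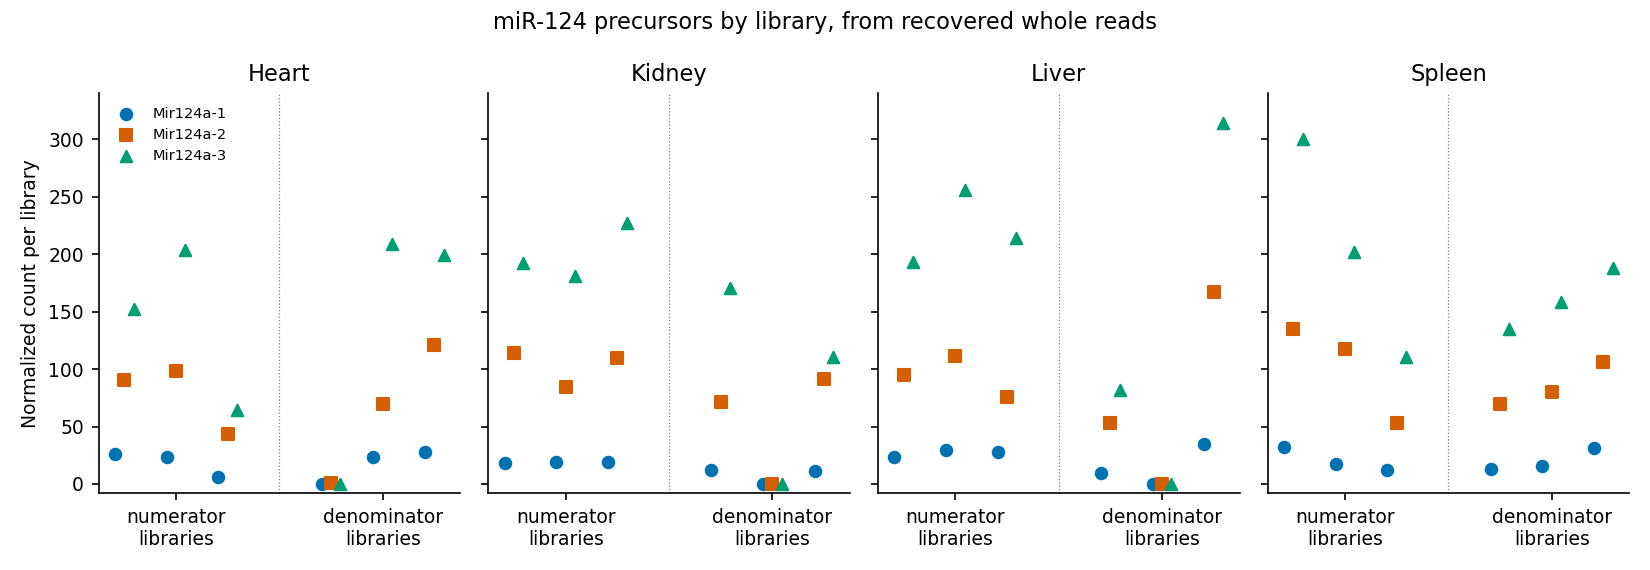
Normalized counts of the miR-124 precursors in each library (recovered reads divided by the library's size factor), in 4 organs, with the 3 numerator libraries left of the dotted line and the 3 denominator libraries right of it. In heart, kidney and liver, 1 denominator library lies at or near 0 for all 3 rows, and in spleen none does.

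The libraries at 0 were not shallow by their size factors, which were 2.28 in heart, 1.02 in kidney and 1.54 in liver, within ranges of 0.605 to 2.37, 0.690 to 1.33 and 0.500 to 2.15. Reads of Mir124a-3 also followed the size factor only loosely, since the heart library with the size factor of 2.37 had 152 reads, against 92 to 154 in the 4 with factors of 0.605 to 0.736.

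The log2 ratio of numerator over denominator libraries depended on these libraries. For Mir124a-3 the ratio over all libraries was 0.04 in heart, 1.10 in kidney and 0.74 in liver, and without the library at 0 it was -0.54, 0.51 and 0.16. For Mir124a-1 the ratios of 0.12 in heart, 1.22 in kidney and 0.86 in liver became -0.47, 0.63 and 0.27. For Mir124a-2 they were 0.28, 0.92 and 0.36, and without that library -0.30, 0.33 and -0.23. Leaving out the highest library moved the values the other way in liver, to 2.44 for Mir124a-3, 2.48 for Mir124a-1 and 1.83 for Mir124a-2, and in heart, to 0.49, 0.68 and 1.14 in the same order. In spleen the ratios of 0.35 for Mir124a-3, 0.04 for Mir124a-1 and 0.26 for Mir124a-2 became -0.04, -0.44 and 0.0036 without the highest library, and 0.65, 0.32 and 0.57 without the lowest. Leaving out the lowest library was chosen after the data were seen. The deposited contrast gives these rows standard errors of 1.01 to 1.93 in those organs, against 0.39 to 0.79 in spleen.

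The library at or near 0 for miR-124 was also at or near 0 for Mir219a-2, a precursor of miR-219, which is known from oligodendrocytes. This did not hold for the other precursor, Mir219a-1. By its deposited counts Mir219a-1 was not enriched in brain, where its share was 47.9% of its spleen share. Mir338, the other listed oligodendrocyte row, had a brain mean of only 7.55 normalized counts. In the GENCODE annotation Mir219a-1, Mir219a-2 and Mir338 are each overlapped in part by another microRNA gene. The part of this overlap in their counts was not tested. The brain share of Mir219a-2 was 309-fold that of the next organ, spleen. Mir219a-2 had 84, 94 and 129 reads in numerator libraries and 0, 91 and 85 in denominator libraries in heart. Kidney had 182, 191 and 109 in numerator libraries and 150, 6 and 96 in denominator libraries. Liver had 97, 115 and 66 in numerator libraries and 114, 0 and 344 in denominator libraries. In that library Mir219a-1 had 149 reads in heart, 106 in kidney and 74 in liver, and its normalized count in kidney (104) was the highest of the 6. Other neuron-enriched precursors did not all go with it. Of those whose reads could be recovered, 3 of 9 in heart, 6 of 7 in kidney and 4 of 9 in liver had their lowest normalized count in that library, and 1 of 9, 5 of 7 and 4 of 9 had their fewest reads there. Those with no read there were 1 of 9 in heart, 2 of 7 in kidney and 3 of 9 in liver. All recovered precursors of this list together held 477 of 1710 recovered reads there in heart, 78 of 1084 in kidney and 713 of 3151 in liver. Single rows weighed heavily in these sums, with 210 reads of Mir134 in heart and 352 of Mir212 in liver.

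Sequencing batch differed among these organs. Per the labels, heart, kidney and liver each have 1 WT library from a second batch, and all brain and spleen libraries are from the first. These 3 organs are also those with a library at or near 0 for miR-124, and spleen has none. The recovered reads do not show which library is the WT one of batch 2, so whether it is the library at 0 is unknown, and the part of batch or genotype in this was not tested.

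None of the other neuron-enriched precursors passed the threshold either. In the authors' deposited tables, 0 of 14 passed an adjusted p of 0.05 in any of the 5 organs (DESeq2 Wald test). In heart, Mir137, Mir153, Mir129-2 and Mir383 had no adjusted p and so could not pass. An unadjusted p under 0.05 was found for 1 of 14 in liver and 1 of 14 in spleen. Their median log2 fold change was -0.01 in brain, 0.23 in liver, 0.16 in spleen, -0.03 in kidney and -0.29 in heart. Mir219a-2, the highest of the 3 oligodendrocyte rows in brain at 0.381% of the sum, had a log2 fold change of -0.12 there (SE 0.27). No precursor of the oligodendrocyte, endothelium, heart muscle, hepatocyte, kidney or leukocyte lists passed the threshold in any organ. Of these, Mir338, Mir196a-1 and Mir196a-2 had no adjusted p in heart, and rows at 0 had none.

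Rows with the most similar levels over the 5 organs were found among 316 rows with a brain mean of at least 100, by Pearson correlation of log2 shares (pseudocount of 1 CPM), as a description over 5 points that share their libraries. For the miR-9 sum these were Mir92b (0.995), Mir344-2 (0.994), Mir6944 (0.993), Mir3475 (0.989) and Mir496a (0.989). For the miR-128 sum they were Mir341 (0.996), Mir212 (0.996), Mir127 (0.996), Mir329 (0.995) and Mir132 (0.995). The miR-124 sum was most like Mir219a-2 (1.000), a comparison added after the values were seen. The lists changed with the measure, since 2 of the 5 rows for miR-9 and 3 of the 5 for miR-128 were kept with a pseudocount of 10, and 0 of the 5 and 2 of the 5 with Spearman's rank correlation, which has many ties over 5 organs.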

How the data were processed

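Per the labels' protocols, RNA was extracted with a phenol-based reagent from pulverised organs, and each small RNA library was made with the NEXTflex kit. Per the submitters' processing notes, featureCounts (Subread 2.0.3), the build GRCm39 and DESeq2 were used. Open points are the aligner, the annotation, the setting for reads that match several genes or overlap more than 1, and the authors' model: none of these is stated in the sources used here. The authors deposited 1 table per organ. The deposited mean is a signal, counts divided by size factors and averaged over 6 libraries, per the file headers and the read recovery described in the report. Fold changes and standard errors were deposited as log2 values, per the file headers. Their quotient is the deposited Wald score. From it the authors' p-value and adjusted p-value follow, and in heart the adjusted p-value was set for 355 of 1107 rows.

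The members and lists were chosen with earlier results of these data known. The authors' contrast was used as deposited, with no refit of the whole table. Unnamed rows were left out, at most 1.82e-05% of an organ's sum, and 0 columns with values of single samples were left unused. Shares are an organ's mean over the sum of its named rows, which was 8511372 (heart) to 21787131 (kidney) normalized counts. The depth of each library is not known from these tables beyond its size factor. Intervals are the deposited log2 fold change with a 95% normal interval. Differences between organs used the sum of the squared standard errors. The rule for named genes took all members in all organs, the 5 rows most like the miR-9 and miR-128 sums, and of each list the 3 highest in brain and any past the threshold. The rows of overlapping microRNA genes, Mir1298 and the row most like the miR-124 sum were named after values were seen.

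Read recovery (rows with a mean up to 200) explained all means under 1 in every organ, 355 in heart, 330 in spleen, 280 in kidney, 230 in brain and 227 in liver. Tested on simulated data for heart, it returned the reads of 38 of 38 rows. The test of the organ difference, on 829 simulated rows for brain and kidney, called 11 of 100 rows changed by 1 on the log2 scale and 37 of 100 changed by 3, and 3 of 629 unchanged rows. Python 3.11.15, numpy 2.4.6, scipy 1.17.1, pandas 2.3.3, Biopython 1.88 and matplotlib 3.10.9 were used. Alternatives were another denominator for shares, other adjustments of p, another measure of likeness and the leaving out of single libraries.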

Additional observations from a re-analysis of the deposited data

How the results depend on the processing

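The families' shares and ratios moved with the denominator. Shares of one organ keep the order of the families by construction, and the ratios kept it as well. The order of the organs outside brain changed by the median of ratios. Liver (0.0543%) then passed spleen (0.0536%) for miR-9, and liver (0.0623%) passed kidney (0.0558%) for miR-128. With microRNA and let-7 rows alone as the denominator, the brain shares were 11.9% (miR-9), 8.22% (miR-128), 0.951% (miR-124) and 21.1% (all members). With the 3 most abundant rows of each organ taken from the denominator they were 14.5%, 10.05% and 1.16%, and 25.8% for all members. The brain share over that of the next organ was 51.1-fold (miR-128) and 96.2-fold (all members) over microRNA rows. With the 3 most abundant rows taken out it was 111-fold (miR-9), 43.5-fold (miR-128), 215-fold (miR-124) and 81.9-fold (all members). By the median of ratios it was 81.5-fold, 34.7-fold, 212-fold and 65.3-fold in the same order.

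The counts of member and organ pairs and of organ differences past the threshold were 0 under each adjustment of p and at an unadjusted p under 0.05. For the recovered reads, leaving out 1 library at a time gave log2 ratios of numerator over denominator libraries from -0.54 to 2.48 over the 12 rows and organs, the highest in liver without the highest library. No paired analysis was possible because the tables give no value per mouse. In brain the spread between libraries, counting error left out, was 20.4% to 35.6%. Outside brain the miR-124 rows rested on 81 to 1060 reads over the 6 libraries of an organ.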
